A study of Saccharomyces cerevisiae with 2 samples.

Results

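The replication fork protection and checkpoint genes described here are 7 open reading frames (ORFs) of 6207 on a two-colour yeast array: TOF1 (YNL273W), CSM3 (YMR048W), MRC1 (YCL061C), CTF4 (YPR135W), MEC1 (YBR136W), RAD9 (YDR217C) and DPB11 (YJL090C). They were picked by name, with the ratios of these arrays already known, as TOF1 and the genes whose products work with it. Their values are therefore a description, and no p-value is given for any of them. Saccharomyces cerevisiae cells of the haploid BY4741 background carrying a sho1 mutation were grown in YEPD at 24 °C. The treated culture then received Zymolyase, a glucan-digesting enzyme mix that attacks the cell wall, at 0.8 units per ml for 3 hours, and the untreated culture was the other portion of the same parent culture. Sho1 is a membrane sensor of the osmotic stress pathway. Both sides of the comparison are labelled as sho1 mutant, apart from a comment on untreated RNA described below. Loss of Sho1 is taken from these labels, since SHO1 had no value on either array. No sample is labelled as a strain with SHO1. The sources used here do not state whether the mutant was a single clone.

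Tof1, Csm3 and Mrc1 travel with the replicative helicase and keep a stalled fork intact. Tof1 and Csm3 form a stable pair, and Mrc1 carries the stall signal from the kinase Mec1 to the effector kinase Rad53. Ctf4 joins the helicase to the polymerase that makes primers. Mec1 is the yeast counterpart of ATR, Rad9 is the adaptor that relays DNA damage rather than fork stalling to Rad53, and Dpb11 is a scaffold needed both to fire origins and to activate Mec1. Several replication genes are transcribed mostly around the G1/S transition, so cell cycle genes are given beside them.

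Each of 2 arrays gave 1 log2 ratio per ORF. Treated RNA carried Cy3 on array 1 and Cy5 on array 2. All 7 genes had a value on both arrays, as did 5311 ORFs in all, while SHO1 had none on either. Across ORFs the columns had a Pearson r of -0.012 and a Spearman rho of -0.26, so most of the spread was not shared by the arrays. No source used here says which way the ratios run. Both columns were read as deposited, and a positive value was taken to mean more transcript after Zymolyase. This is an assumption, since the titles describe both arrays alike but state no direction. Turning both signs would turn every direction below, and values with array 1 alone turned are given where they matter. In the labels of array 2, a comment on the untreated RNA says hog1 mutant, against sho1 in the remaining fields. HOG1 was at -0.20 on array 1 and 0.039 on array 2. Nothing in the labels ties the arrays to separate cultures, and SDs and p-values thus cover array-to-array spread alone, possibly technical. The arrays' number limits the precision, and no spot brightness was used here.

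TOF1 stood alone among the 7 genes. Array 1 gave it a log2 ratio of 0.96 and array 2 one of 1.42, ranks 15 and 10 from the top of 5311 ORFs. The mean was 1.19 ± 0.32 (SD, n = 2 arrays), a 2.28-fold ratio. Both arrays put TOF1 far above 0, and the other 6 genes had means between -0.31 and 0.068. In limma's moderated test of the mean against 0, 1 of the 7 genes, TOF1, passed an adjusted p of 0.05 as higher and 0 passed as lower. Of all 5311 tested ORFs, 41, or 0.772%, passed as higher and 0 as lower, and since the genes were chosen with this contrast in view nothing is read from the count. By mean, TOF1 was number 11 of the 41, which ran from 0.55 to 2.06. Its arrays differed by 0.45, a gap at percentile 88.3 of all ORFs.

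**Figure D1:**
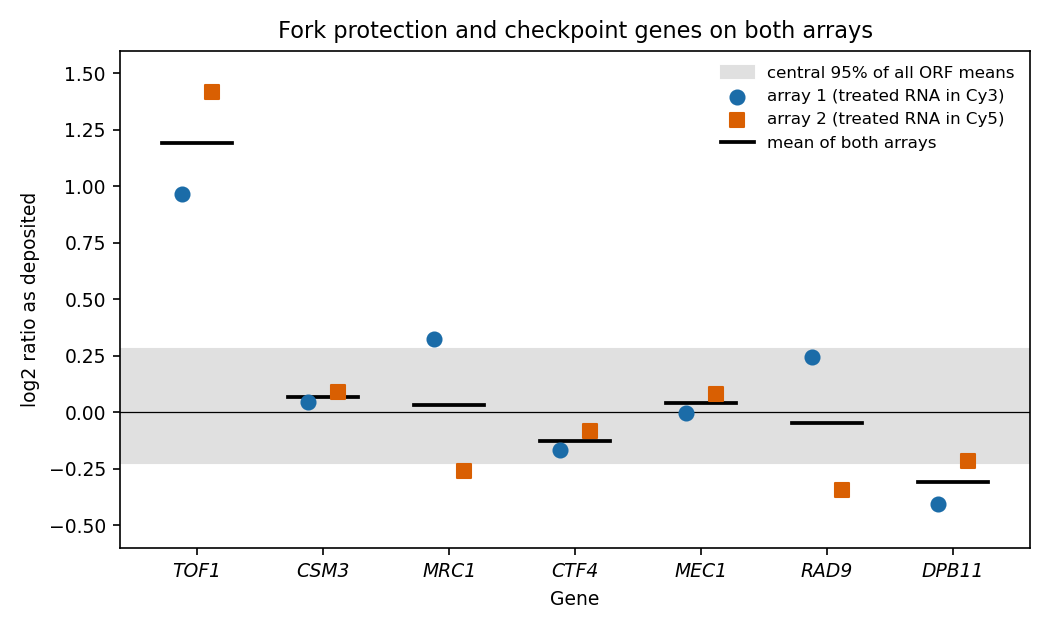
Log2 ratio of each gene on array 1 (circles) and array 2 (squares), with the mean of both (black bars); the grey band holds the central 95% of the means of all ORFs, from -0.23 to 0.28. TOF1 lies above the band on both arrays, DPB11 has a mean below it, and MRC1 and RAD9 have points on opposite sides of 0.

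CSM3, the gene of the closest partner of Tof1, had ratios near 0. It was at 0.045 on array 1 and 0.090 on array 2, with a mean of 0.068 ± 0.032 (SD, n = 2 arrays), so its arrays lay close together. TOF1 exceeded CSM3 by 0.92 on array 1 and by 1.33 on array 2. The mean difference was 1.12 ± 0.29 (SD, n = 2 arrays), or 2.18-fold between their ratios. The difference has no test, because TOF1 was chosen for its ratio.

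MRC1 changed sign between the arrays. It was at 0.32 on array 1 and -0.26 on array 2, so its mean of 0.032 ± 0.41 (SD, n = 2 arrays) says little about either. The gap of 0.59 between its arrays was at percentile 94.8 of all ORFs. TOF1 exceeded MRC1 by 0.64 on array 1 and by 1.68 on array 2.

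CTF4 was slightly below 0 on both arrays, at -0.17 on array 1 and -0.083 on array 2. Its mean was -0.13 ± 0.060 (SD, n = 2 arrays), within the central 95% of all ORFs. TOF1 exceeded CTF4 by 1.13 on array 1 and by 1.501 on array 2. Of the 4 fork protection genes, TOF1 had the only mean outside that central range.

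The checkpoint kinase gene was near 0. MEC1 was at -0.0042 on array 1 and 0.083 on array 2, with a mean of 0.039 ± 0.062 (SD, n = 2 arrays). RAD9, like MRC1, had opposite signs, at 0.25 on array 1 and -0.34 on array 2, with a mean of -0.049 ± 0.42 (SD, n = 2 arrays). The arrays of RAD9 differed by 0.59, again at percentile 94.8. The mean of TOF1 was above that of MEC1 by 1.15 and above that of RAD9 by 1.24.

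MRC1 and RAD9, the adaptors of the fork stalling and damage branches, thus were both above 0 on array 1 and below 0 on array 2. Taking 0.2 as a limit, chosen after the values were seen, 2 of the 7 genes were above 0.2 on array 1 and below -0.2 on array 2, and 0 had the reverse pattern. Among all ORFs 233 of 5311, or 4.39%, had the first pattern and 110, or 2.07%, the reverse. The first pattern was not particular to adaptor genes. Of 110 other replication, checkpoint and cell cycle genes, listed below, 6, or 5.45%, had it and 0 had the reverse. Each labelling was used on 1 array, so in these values a dye effect cannot be told apart from another difference between the arrays. As no column direction is stated, it also cannot be told apart from a change with Zymolyase on columns that run opposite ways. With array 1 turned, MRC1 and RAD9 both came to -0.29.

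DPB11 had the lowest mean of the 7 genes and the lowest value on array 1, while RAD9 and MRC1 were lower on array 2. It was at -0.41 on array 1 and -0.21 on array 2, below 0 on both, with a mean of -0.31 ± 0.14 (SD, n = 2 arrays). As linear ratios these are 0.755 and 0.862. By mean it was rank 5281 of 5311 ORFs, so 0.565% of ORFs lay lower, and it did not pass limma's test. TOF1 exceeded DPB11 by 1.37 on array 1 and by 1.63 on array 2, a mean difference of 1.501 ± 0.18 (SD, n = 2 arrays). This was the widest mean gap to any of the 6 partners, though on array 2 the gaps to RAD9, at 1.76, and MRC1 were wider.

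By mean the order was TOF1, CSM3, MEC1, MRC1, RAD9, CTF4 and DPB11. TOF1 and CSM3, the first neighbours, had ranges over the arrays that did not overlap, and neither did those of CTF4 and DPB11, the last. The neighbouring pairs from CSM3 to CTF4 had overlapping ranges. Array by array, CSM3 lay above MEC1 by 0.049 and 0.0071, and MRC1 above RAD9 by 0.079 and 0.083. MEC1 and MRC1 changed order between the arrays, as did RAD9 and CTF4. CSM3 and MEC1 each lay above CTF4 on both arrays. With 2 arrays the order within these neighbouring pairs is not settled. The median mean over all 7 genes was 0.032, and over the 6 partners without TOF1 -0.0089, against -0.028 over all ORFs. On array 1 alone the partners' median was 0.020, and on array 2 alone it was -0.15. Of the 6 partners 0 passed limma's test, against 41 (0.772%) of the 5311 ORFs, and nothing is read from this count either. By size alone, taking ORFs of one sign whose mean reached 1.5-fold, TOF1 again was the 1 gene of the 7, against 38 ORFs (0.715%) higher and 0 lower among all 5311.

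**Figure D2:**
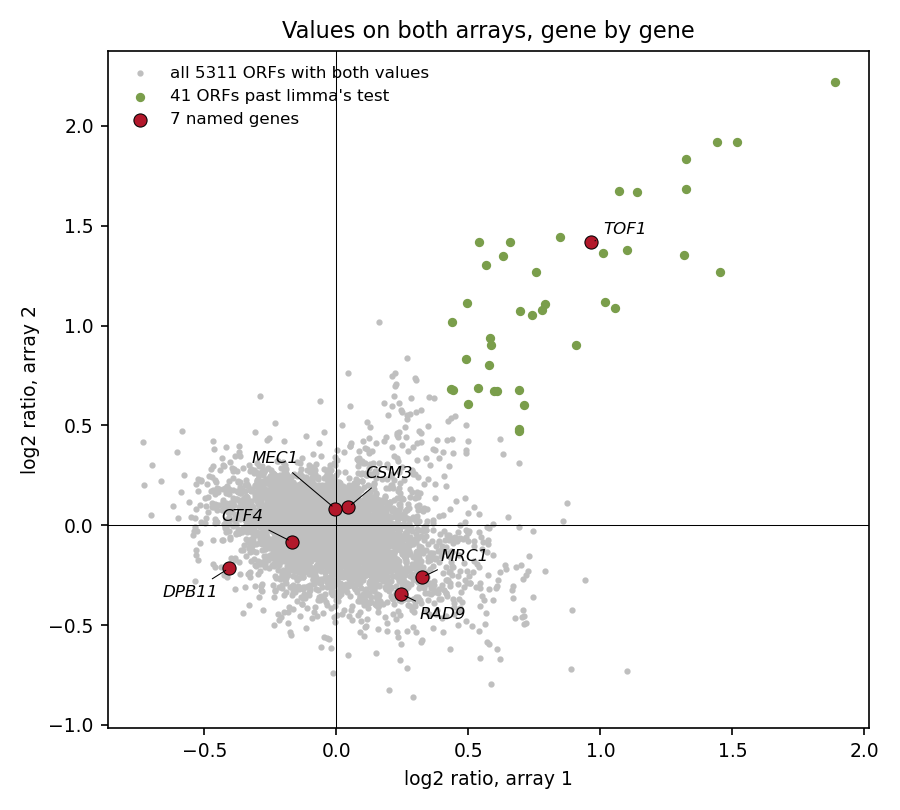
Log2 ratio on array 1 (horizontal) against array 2 (vertical) for the 5311 ORFs with both values (grey), the 41 past limma's test (green) and the 7 genes (red). TOF1 sits in the upper right group at 0.96 and 1.42, while the other 6 lie in the main cloud or at its edge.

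The reading of TOF1 rests on which way the columns run. When array 1 was turned, its mean came to 0.23, rank 236 of 5311, and it no longer passed limma's test. Under that reading 0 ORFs passed and 499 had an unadjusted p under 0.05, against 41 and 191 as deposited. DPB11 then came to 0.096, so the order of the 7 genes also changed, with MRC1 and RAD9 lowest.

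The 6 ORFs with the values most like those of TOF1, by Euclidean distance over the 2 arrays, had no replication gene among them. The nearest was GEM1, a mitochondrial GTPase gene, at 1.01 on array 1 and 1.37 on array 2, a distance of 0.069. ARO1, the enzyme of several steps of aromatic amino acid synthesis, was at 0.85 and 1.45, a distance of 0.12. IDP2, cytosolic isocitrate dehydrogenase, was at 1.10 and 1.38. YBR225W, the silencing gene SIR4 and the putative aryl alcohol dehydrogenase gene YPL088W followed, at distances of 0.26, 0.28 and 0.30. All 6 passed limma's test, as their closeness to TOF1 implies, and a likeness over 2 arrays is a weak one.

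The genes on either side of TOF1 on its chromosome in the R64 annotation had ratios near 0. GOR1, glyoxylate reductase, was at -0.0080 on array 1 and -0.080 on array 2. SEC2, an exchange factor of secretion, was at 0.10 and -0.071. The high ratio was thus at TOF1 and not at its annotated neighbours. No build is named for the array, so no coordinates are given.

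TOF1 is a long gene, and ORFs past the test were more frequent among long ones. Its annotated coding length is 3717 bp, against 954 bp for CSM3, 2295 bp for DPB11, 2784 bp for CTF4, 3291 bp for MRC1, 3930 bp for RAD9 and 7107 bp for MEC1. Of the 439 measured ORFs over 3000 bp 13, or 2.96%, passed limma's test, against 7 of 1841, or 0.380%, up to 1000 bp. The 50 ORFs nearest to TOF1 in length, from 3591 to 3834 bp, had a median mean of -0.0083 and ran from -0.35 to 0.37, and 0 of them passed. TOF1 was above all 50 by mean, above all 50 on array 2 and below 1 of them on array 1. This depends on the window, as the 50 ORFs nearest to RAD9, from 3735 to 4098 bp, included 3 past the test. Their highest mean was 1.37, above that of TOF1. By mean, all 6 partners lay inside the range of their own 50 length neighbours. DPB11 was below 49 of its 50 length neighbours, which had a median of -0.033. The part of length in the ratio of TOF1 was not tested further.

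**Figure D3:**
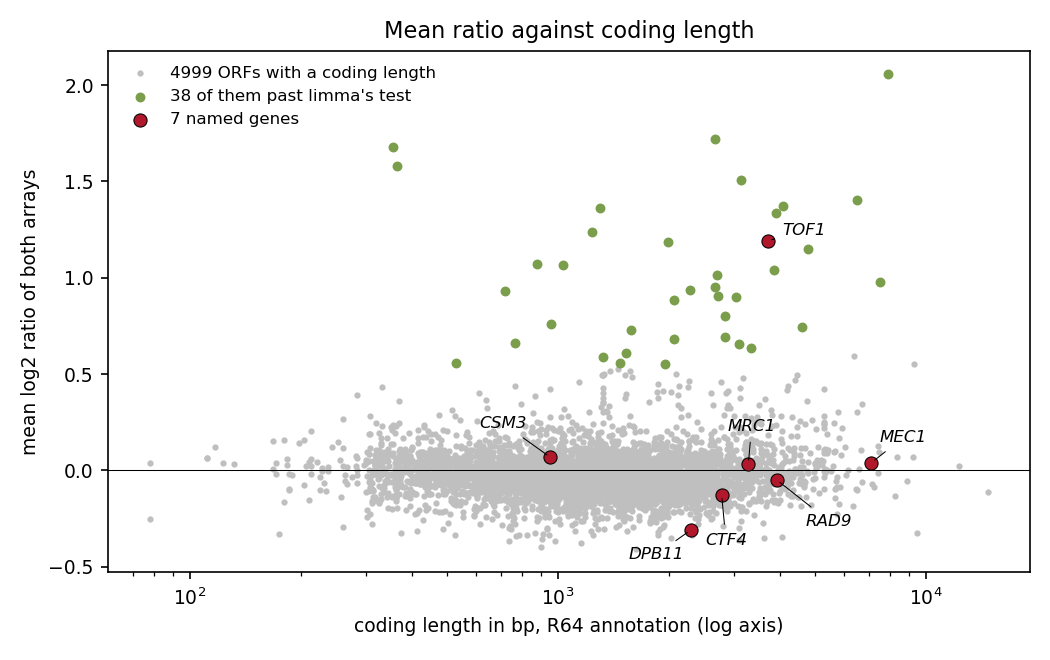
Mean log2 ratio of both arrays against annotated coding length in bp on a log axis, for 4999 ORFs with a length (grey), the 38 of them past limma's test (green) and the 7 genes (red). TOF1 at 3717 bp has a mean of 1.19, while MRC1 at 3291 bp and RAD9 at 3930 bp lie near 0.

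No measured gene of the other replication, checkpoint and cell cycle lists passed the test. In 11 lists of other replication, checkpoint and cell cycle genes, 110 of 123 genes had both values, and 0 passed limma's test in either direction, while 2 had an unadjusted p under 0.05. Over all 5311 ORFs 41, or 0.772%, passed and 191 had an unadjusted p under 0.05, so nothing is read from the counts in the lists. The median of the 110 genes was -0.047, against -0.028 over all ORFs. In the lists 13 genes were above 0 on both arrays, 36 below 0 on both and 61 of opposite sign. As shares these were 11.8%, 32.7% and 55.5%, against 13.97%, 26.8% and 59.3% of all ORFs. No listed gene reached TOF1 on either array, the highest being CDC5 at 0.68 on array 1 and RNR3 at 0.76 on array 2. None had a mean below that of DPB11, where 0.565% of all ORFs lay. On array 2, where DPB11 ranked 4659, 18 of the 110 were below DPB11. With array 1 turned, 2 of the 110, RNR3 and MCM10, had a mean above that of TOF1.

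The helicase that Tof1 and Csm3 travel with had a median near 0. The 10 measured subunits of the complex of Cdc45, Mcm2 to Mcm7 and GINS had a median mean of 0.028, and 7 were of opposite sign. MCM3 had a mean of 0.11, the GINS subunit gene PSF3 0.10 and MCM4 -0.17. None of the 10 passed limma's test, nor had any an unadjusted p under 0.05.

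Origin genes, with whose products Dpb11 acts, had means above that of DPB11, as did nearly all ORFs, of which 0.565% lay lower. The 13 measured licensing and firing genes had a median of -0.047. SLD3, whose product binds Dpb11 at origins, was at -0.36 on array 1 and -0.016 on array 2. SLD2, the other firing factor that binds Dpb11, was at -0.10 and 0.0079, and is named beyond the rule for listed genes. The largest origin recognition subunit gene, ORC1, had a mean of -0.18, the kinase gene CDC7 -0.11, and SLD7, a partner of Sld3, had 0.070.

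Polymerase and clamp genes stayed close to 0. The 10 measured polymerase subunit genes had means from -0.12 to 0.017, with POL31 of polymerase delta at -0.068 and DPB3 of polymerase epsilon at 0.017. The 13 measured genes of the sliding clamp, the checkpoint clamp and their loaders had a median of -0.052. POL30, the sliding clamp, was at 0.039 and the loader subunit gene RFC4 at -0.052. The loader gene DCC1 and the checkpoint clamp gene DDC1 were at -0.18 and -0.14, without passing the test.

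The kinases and phosphatases around Mec1 had means between -0.16 and 0.093, 9 of 9 measured and 0 past the test. DUN1, the kinase that raises nucleotide supply, was at 0.080 and CHK1, the kinase that holds cells before anaphase, at -0.023. PTC2, a phosphatase that turns Rad53 off, was at -0.16.

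RNR3, a ribonucleotide reductase gene known to be induced when Mec1 and Rad53 are active, had the highest mean of the 110 listed genes. It was at 0.043 on array 1 and 0.76 on array 2, so the height came from 1 array. The mean of 0.40 ± 0.51 (SD, n = 2 arrays) did not pass limma's test (adjusted p = 0.668). In the list of nucleotide supply and damage response genes 5 were below 0 on both arrays, among them RNR1 at -0.12 and SML1, the reductase inhibitor, at -0.16. HUG1, RFX1, DIN7 and RAD54 of this list had no pair of values.

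RTT107, a scaffold recruited to stalled forks, was at 0.29 on array 1 and 0.28 on array 2, a mean of 0.28 ± 0.0075 (SD, n = 2 arrays) that did not pass limma's test (adjusted p = 1.00). TOP1, the topoisomerase that binds Tof1, was at 0.14 and 0.0053. The helicase genes SGS1 and SRS2 had means of -0.10 and -0.061. The 10 cohesin and cohesion genes had a median of -0.022, with SMC1 at 0.10, IRR1 at 0.066, SCC2 at -0.14 and SCC4 at -0.13. None of these genes passed.

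Cell cycle genes gave 0 calls. The 11 measured G1/S genes had a median of -0.051. CLB5, the S phase cyclin, was at 0.16 on array 1 and -0.27 on array 2, and SWI4, a G1/S transcription factor gene, at 0.10 and -0.21. CLN2 had no pair of values. NRM1, a repressor of G1/S transcription and itself one of its targets, had the lowest mean of the 110 listed genes, -0.22, but 0.022 with array 1 turned. CLN1 was at -0.063 and CLN3 at 0.0099. All 8 core histone genes had means below 0, with a median of -0.10, where the median over all ORFs was also below 0, at -0.028. Of the 8, 6 (75%) were below 0 on both arrays, against 26.8% of all ORFs, and 0 had an unadjusted p under 0.05 in limma's test. HHF1 and HTB1 were lowest at -0.16 and -0.14. Of those below 0 on both arrays, HTA1 and HHT1 were nearest to it at -0.063 and -0.057, but histone gene copies are nearly alike in sequence and their spots cannot be told apart fully. The 10 G2/M genes had a median of -0.029, with CDC20 at -0.13, CLB1 at -0.097 and HST3 at -0.029. For scale, KDX1, a known target of wall damage signalling, was at 1.45 on array 1 and 1.27 on array 2. Its mean was 1.36 ± 0.13 (SD, n = 2 arrays), and it ranked 8 of all ORFs by mean, against 11 for TOF1. With array 1 turned its mean was -0.094. KDX1 was picked as the highest known wall damage gene, so no p-value is given for it and nothing is read from its passing the test. Of 8 wall damage reference genes 3 passed as higher and 0 as lower: KDX1, PRM5 with a mean of 0.76 and CWP1 with 0.93. Of the others CRH1 had 0.37, and CIS3, a wall mannoprotein gene, was below 0 on both arrays with a mean of -0.23. Among the 8, 6 were above 0 on both arrays (75%, against 13.97% of all ORFs), 1 was below 0 on both and 1 was of opposite sign.

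**Figure D4:**
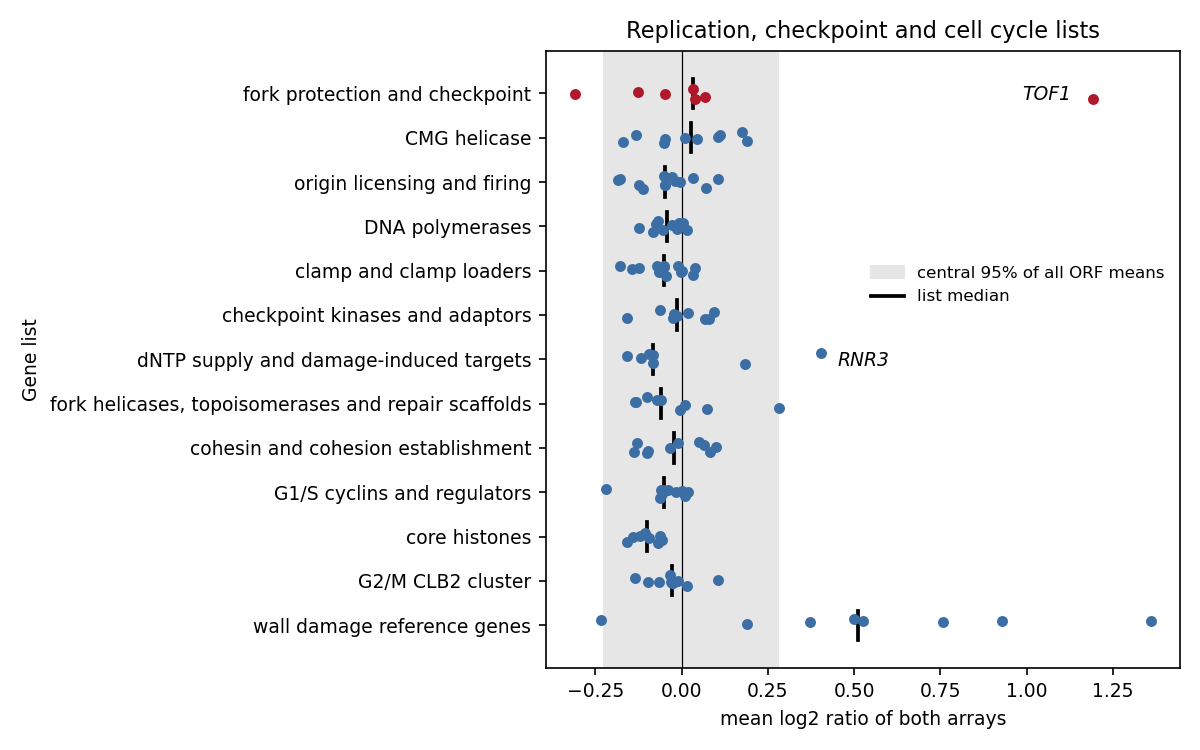
Mean log2 ratio of both arrays for each measured gene (points) in the fork protection and checkpoint group (red) and in 12 other lists (blue), with the list medians (black bars) and the central 95% of all ORF means (grey band). With both columns as deposited, TOF1 at 1.19 stands away from all listed replication, checkpoint and cell cycle genes, the next of which is RNR3 at 0.40. With array 1 turned RNR3 comes to 0.36 and TOF1 to 0.23.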

How the data were processed

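The authors deposited 1 log2 ratio per ORF and array for 2 two-colour arrays with swapped dyes. The base of the log was read off the numbers, since 100% of them became multiples of 0.0001 (tolerance 1% of the step) as powers of 2. For scanner, background correction, normalization and ratio direction, nothing is stated in the sources used here. Of 6209 rows, 2 control rows were left out; 5654 of 6207 ORF names matched locus tags of the R64 annotation, used for symbols, neighbours and lengths. Column medians were -0.033 and -0.022, and values were used as deposited.

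The mean of both arrays was tested against 0 over the 5311 ORFs with both values, with the moderated two-sided test of limma 3.58.1 (R 4.3.3; intercept-only lmFit, then eBayes), Benjamini-Hochberg adjusted over all ORFs at a threshold of 0.05. Each ORF had 1 residual and 23.5 prior degrees of freedom; no dye term could be added. The fit was tested on simulated data. The 7 genes and the lists were chosen with earlier results of these data known. Of each list the genes past the test, and the 2 highest and 2 lowest by mean among those with one sign on both arrays, are named, besides SWI4, CLB5 and CLN2, with exceptions said; 2 listed genes are not reported here. Alternatives were centring, scaling, turned columns, single arrays, ORFs with 1 value, other variance models, a threshold of 0.1, a size rule and, added after seeing the data, length limits. The planned promoter motif search was not run, as no sequences were used here. Tables and plots were made with matplotlib 3.10.9, scipy 1.17.1, numpy 2.4.6 and pandas 2.3.3 under Python 3.11.15.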

Additional observations from a re-analysis of the deposited data

How the results depend on the processing

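The orientation of the columns decided the result for TOF1. With array 1 turned, its mean fell from 1.19 to 0.23 and its difference from the partners' median from 1.20 to 0.19, and 0 of the 7 genes, 0 ORFs of the table and 0 of the wall damage reference genes passed; this follows from the changed sign of 1 array. With both signs turned, the TOF1 mean was -1.19 and the difference -1.20. Under centring, scaling, robust variances, ORFs with 1 value, a limit on unlike arrays and a threshold of 0.1, TOF1 stayed the 1 gene of the 7 past the test, and the whole table gave 31 to 61 calls. Because TOF1 was chosen for its ratio on these arrays, nothing is read from its passing under these settings. Centring raised the wall damage reference genes past the test from 3 to 5. Over single arrays the median of the 7 genes ran from -0.083 to 0.045 and that of the partners from -0.15 to 0.020. Tests of ORFs up to 3000 bp and over 3000 bp alone, added after seeing the data, tested fewer ORFs and called 26 and 12, TOF1 among the latter. No list of replication or cell cycle genes gained a call under centring or scaling. With array 1 turned none could, as 0 ORFs of the table passed. Each log2 ratio sets treated against untreated RNA on 1 array, so the test of the ratios was already paired. No groups could be compared, as there is 1 group. Without spot brightness, signal over background is unknown.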
